A study of Fukomys damarensis with 16 samples.

Results

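The Damaraland mole-rat, Fukomys damarensis, is a burrowing rodent that lives in colonies with breeding animals and non-breeding helpers. Described here are 150 of the 21082 genes measured in this species, those that stood lowest in brain relative to all other tissues sampled. They were chosen by their measured levels: for each gene the highest of 4 brain values was subtracted from the lowest of 12 values in kidney, liver, ovary and testis, and the 150 widest gaps were kept. The brain deficit of these genes is therefore a description and not a result. Levels are RPKM, reads scaled to the length of the gene model and to sequencing depth, as the authors deposited them, and the gap was taken on log2(RPKM + 1).

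Messenger RNA was sequenced in 16 libraries. Brain, kidney and liver each have 1 library from a breeding female, a breeding male, a non-breeding female of 3 years and a non-breeding male of 5 years. Ovary has 1 library from a breeding female and 1 from a non-breeding female of 3 years. Testis has 1 from a breeding male and 1 from a non-breeding male of 5 years. No age is given for the breeders, so age and status cannot be told apart, and among the non-breeding animals neither can age and sex. The brain library of the non-breeding male is labelled brain, and the other 3 are labelled frontal brain. The labels do not say which libraries share an animal or whether animals were pooled, so p-values measure the spread between these libraries alone. The files do not pair the identifiers with gene names, and 0 of the 21082 identifiers matched RefSeq's gene table (assembly DMR_v1.0_HiC). The roles of the genes are for this reason not given, the tissue labels could not be checked against marker genes, and few identifiers are printed.

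Brain is built mainly of neurons and glia, most of which arise from the neural plate. Kidney, liver and gonads are rich in epithelial and connective tissue cells. Genes used by such cells can be low in brain while being read in the other organs. In bulk tissue, fewer cells of a type and less RNA per cell cannot be told apart.

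Libraries held 15393003 to 27593857 reads on genes, recovered from the RPKM values. Libraries of the same tissue differed by more than counting error in every pair, with a median squared deviation 12.5 to 47.6 times that of counting. Divided by the number to which the authors scaled a library, the reads on genes gave 1.55 to 1.97 for the livers and 0.665 to 0.945 elsewhere. Liver RPKM consequently sum to 1172850 to 1536310 per library, against 430941 to 681080 elsewhere. Membership of the list, gaps by tissue and calls in each non-brain tissue are given as deposited and with each library scaled to the same sum of RPKM. Median levels, and the levels and log2 differences of named genes, are as deposited.

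The 150 genes ranged from near silence in brain to a substantial level there. The highest brain value stayed under 1 RPKM in 22 of them, lay between 1 and 10 RPKM in 91, and was 10 RPKM or more in 37. The median of their brain means was 2.97 RPKM, with quartiles of 1.10 and 8.40. In kidney the median was 36.4 RPKM, in liver 56.8, in ovary 30.3 and in testis 23.3. Among the 10436 genes at 1 RPKM or more in all 12 non-brain libraries, which include all 150, the medians were 17.3 RPKM in brain, 19.8 in kidney, 19.6 in liver, 19.7 in ovary and 17.4 in testis. The choice used the lowest non-brain value, so it bears on the medians outside brain as well as on that in brain. The lowest non-brain value exceeded the highest brain value by 2.06 to 54.5 times in the genes with reads in brain, with a median of 3.04. The ratio of the mean over the non-brain libraries to the mean over brain had a median of 12.2 and quartiles of 6.77 and 41.5.

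**Figure D1:**
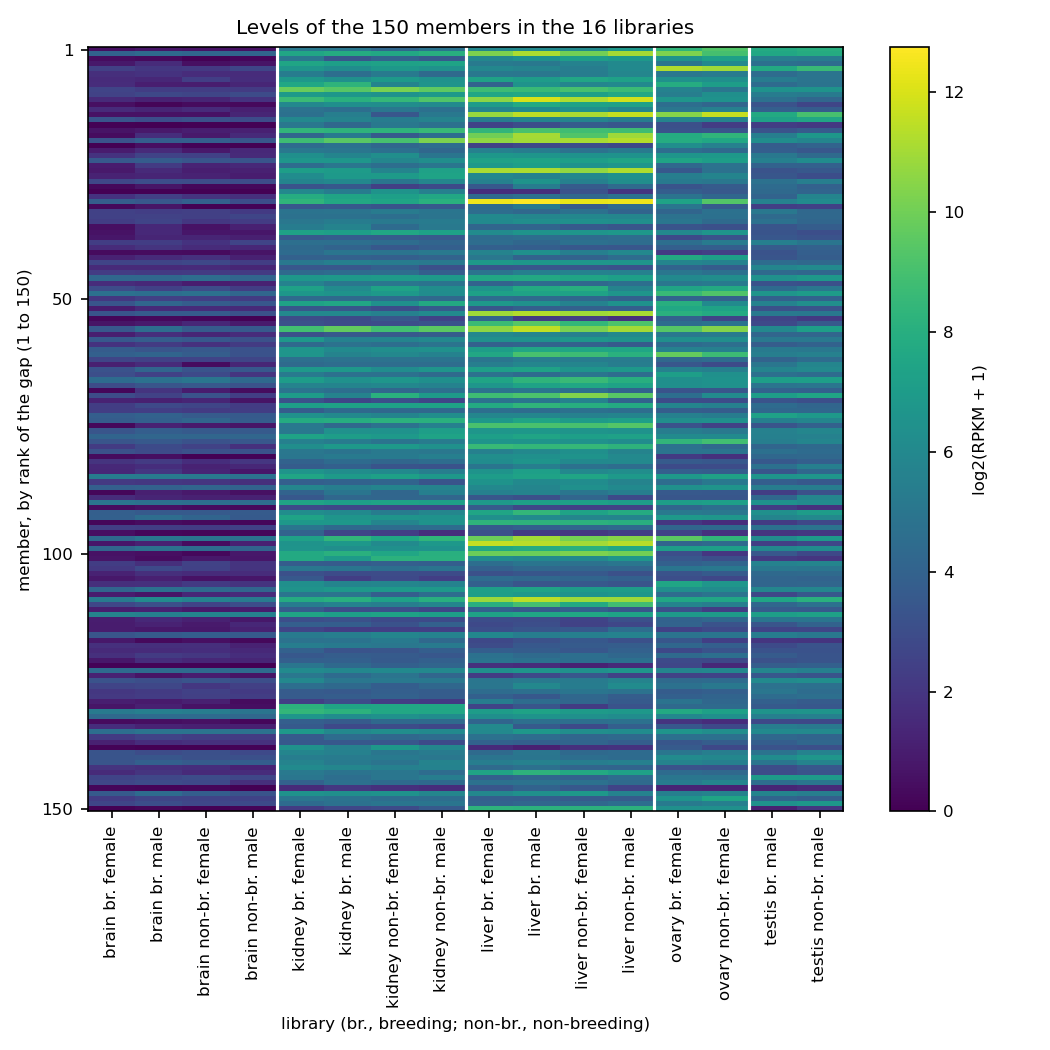
Levels of the 150 genes in the 16 libraries as log2(RPKM + 1), with 1 row per gene in order of the gap and 1 column per library; white lines part brain, kidney, liver, ovary and testis. The 4 brain columns are the darkest in every row by the choice of genes, and the brightest rows are in liver, where the highest tissue mean is 5841 RPKM.

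The gap itself ran from 1.0 to 3.49 with a median of 1.32, and 17 genes had a gap of 2 or more. The last gene in the list had a gap of 1.0034, with 0.126 RPKM as its highest brain and 1.26 as its lowest non-brain value. The first gene outside had a gap of 1.0030, with 3.65 RPKM as its highest brain and 8.33 as its lowest non-brain value. The gaps of these 2 genes were nearly the same, while their levels were not. With each library scaled to the same sum of RPKM, 97 of the 150 stayed among the 150 widest gaps, and with a pseudocount of 0.1 in place of 1, 119 did. Leaving out any 1 library kept 118 to 150 of them, the fewest without the breeding male brain. Under all of these settings together 82 genes stayed in the list.

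DMR_01199 had the widest gap. It stood at 0.393 RPKM in the breeding female brain, 0.649 in the breeding male, 0.518 in the non-breeding female and 0.466 in the non-breeding male, from 63 reads in the 4 libraries together. The kidneys of the same classes held 34.8, 32.5, 17.6 and 27.6 RPKM and the livers 59.8, 63.0, 67.8 and 108. The breeding and the non-breeding ovary held 319.5 and 625 RPKM, and the testes 222 and 256. This gene was most abundant in the gonads, and its tissue means differed by more than an order of magnitude outside brain, from 28.1 RPKM in kidney (SD 7.63, n = 4) to 472 in ovary (SD 216, n = 2).

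DMR_01726 came next, and it was not silent in brain. Its brain values were 15.4 RPKM in the breeding female, 19.5 in the breeding male, 16.7 in the non-breeding female and 17.0 in the non-breeding male. In kidney it stood at 186, 227, 196 and 256 RPKM in the same order, and in testis at 189.6 (breeding) and 225. Liver was the highest tissue with 1192, 2339, 1056 and 2090 RPKM, and the breeding ovary at 1249 reached into the range of the livers while the non-breeding ovary at 504 did not. The mean over the non-brain libraries was 47.2 times the brain mean. Both leading genes kept their place in the list under every setting above.

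The most abundant genes outside brain were DMR_13941 and DMR_09355. DMR_13941 stood at 5735, 6899, 5176 and 5556 RPKM in the livers of the breeding female, breeding male, non-breeding female and non-breeding male, and at 12.5, 10.1, 14.2 and 7.10 in the brains. Kidney had 179 to 326 RPKM of it, the ovaries 166 (breeding) and 658, and the testes 47.0 (breeding) and 70.8. DMR_09355 stood at 1735 to 3181 RPKM in liver and at 1361 (breeding) and 3214 in ovary, against 9.86 to 42.7 in kidney. In brain it stood at 0.524, 0.552, 0.527 and 1.52 RPKM, the last in the non-breeding male, so that the non-brain mean was 1656 times the brain mean. Kidney was the closest tissue to brain for this gene, with a lowest value 6.5 times the highest brain value.

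At the other end were genes with an even level outside brain. DMR_18380 had the highest brain mean of the list, 49.6 RPKM (SD 3.47, n = 4), and also the second smallest range over the non-brain libraries. It stood at 156 RPKM in kidney (SD 14.4, n = 4), 176 in liver (SD 14.5, n = 4), 118 and 121 in the ovaries and 141 and 157 in the testes. DMR_04916 had the smallest range of all, 13.9 to 21.4 RPKM over the 12 libraries, against 3.16, 4.41, 4.24 and 3.68 in brain. DMR_18091 was the other gene with a high brain mean, 48.3 RPKM (SD 15.4, n = 4), and it stood at 1797 to 2802 RPKM in liver and 154 to 276 in the other non-brain libraries. DMR_18380 and DMR_18091 left the list with the same sum of RPKM and with a pseudocount of 0.1, and DMR_04916 left it with the same sum.

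**Figure D2:**
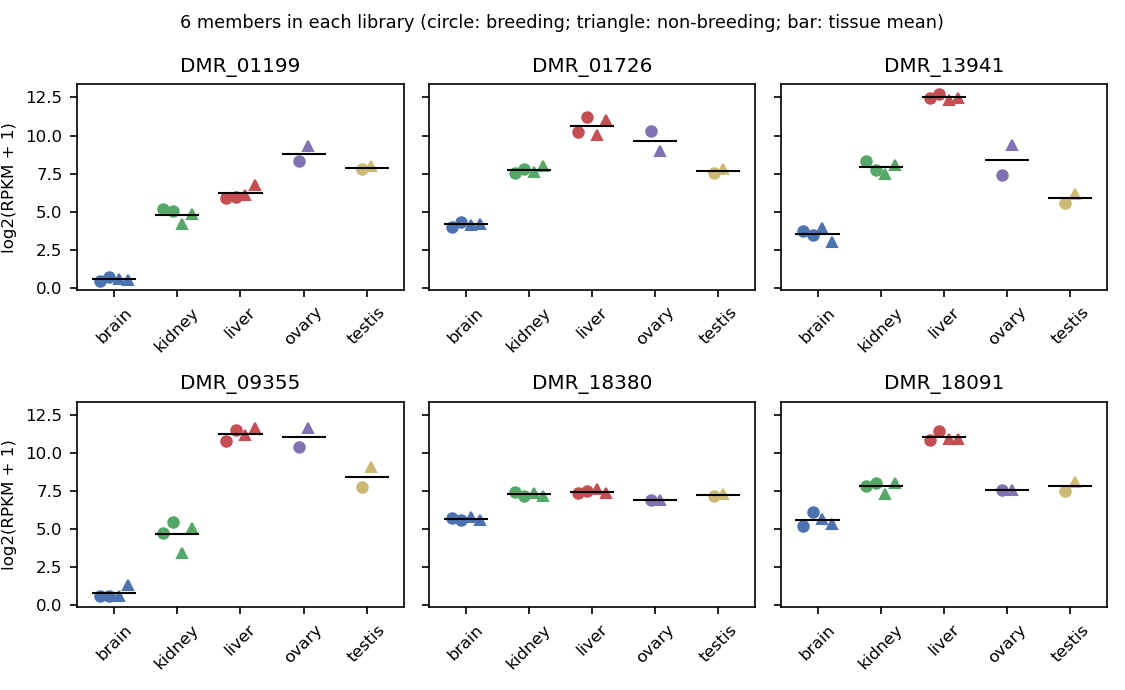
Log2(RPKM + 1) of 6 of the genes in each library, by tissue; circles are breeding and triangles non-breeding libraries, and bars are tissue means. DMR_01199 and DMR_09355 lie near 0 in brain, whereas DMR_18380 has 46.3 to 53.8 RPKM there and an even level in the other 4 tissues.

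How even a gene was outside brain went with its level in brain. The range over the 12 non-brain libraries had a median of 2.72 on the log2 scale, and ran from 0.60 to 9.21. In the 22 genes under 1 RPKM in brain the median range was 3.84, in the 91 genes at 1 to 10 RPKM it was 2.66, and in the 37 genes at 10 RPKM or more it was 1.93. The choice of genes bears on this order, since a gene near 0 in brain can meet the gap with a low value elsewhere. The lowest non-brain value had a median of 2.68 RPKM in the first of these classes, 10.4 in the next and 46.0 in the last.

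Reads behind the low values were few in some genes. The 4 brain libraries together gave a median of 317 reads per gene, with quartiles of 96.8 and 839, and every gene had at least 10 reads in each non-brain library. A single gene, DMR_01086, had 0 reads in all 4 brain libraries, which allows up to 3 reads in each for counting error alone. It stood at 2.23 to 92.7 RPKM elsewhere. Of all reads on genes, the 150 together held 0.143% to 0.196% in brain, 1.85% to 2.01% in kidney, 2.86% to 3.32% in liver, 2.97% to 3.13% in ovary and 1.34% to 1.45% in testis. The 10 most abundant genes, by mean deposited RPKM over the non-brain libraries, were then left out. The shares pooled by tissue were 0.144%, 1.56%, 1.18%, 2.24% and 1.22% in the same order, with liver the smallest of the 4 non-brain tissues. Deposited RPKM sum highest in liver, so such a ranking favours genes high in liver. The choice of the genes left out therefore bears on the place of liver, and other choices were not tested.

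Within brain, the breeding male library was the highest of the 4 for 72 of the 150 genes (48%). It was the highest for 31.9% of the 10436 genes at 1 RPKM or more in all non-brain libraries. The non-breeding female was highest for 30 genes (20%, against 20.4% of the 10436), the breeding female for 28 (18.7%, against 27.8%) and the non-breeding male for 20 (13.3%, against 19.9%). With the same sum of RPKM in each library the breeding male was highest for 80. The sum of the 150 levels was 1084 RPKM in that library, against 900.3 in the breeding female, 995 in the non-breeding female and 847 in the non-breeding male. The breeding male exceeded the non-breeding male in 111 of the 150 genes (74%), against 46.5% of all genes tested. Over the 150 genes the median log2 difference was 0.19, over all genes tested 0 and over the 10436 genes -0.005. The genes tested were picked by levels outside brain. Equal values in a pair, such as 0 in both brains, count as not higher. The breeding female exceeded the non-breeding female in 64 of the 150 (42.7%, against 47.1% of all genes tested). The choice of genes used the highest of the 4 brain values of each gene, so these counts are not independent of it. The 150 genes also had a lower median of brain means than the 10436, 2.97 against 17.3 RPKM. The pairs of brain libraries have 1 library on each side, so none of this is tested. The piece of brain also differs by label in the male pair, since the breeding male is labelled frontal brain and the non-breeding male brain, and its part in the difference was not tested.

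The genes had coding lengths like those of other widely expressed genes. The median was 1233 bases, with quartiles of 767 and 1925, against 1368 bases (816 and 2301) in the 10436 genes and 1056 (576 and 1875) in all 21082. Some of them had neighbouring identifiers. In 9 pairs, which hold 17 of the genes, the identifier numbers were at most 2 apart. Across the 12 non-brain libraries, which share tissue and depth, the log2 levels of such pairs had Pearson correlations from -0.46 to 0.99 with a median of 0.81, and 5 pairs had the same highest tissue. As deposited, liver had the highest mean in 77 of the listed genes, so genes that are not neighbours can also share a highest tissue. No such counts or correlations were taken for random pairs of the listed genes or for all genes. Whether the neighbouring pairs are more numerous or more alike than other pairs was therefore not tested. The sources used here do not say what the numbering follows, and reads shared between near-identical copies cannot be told from these values.

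On the deposited scale 1525 genes lay lower in all 4 brain libraries than in any other library. The count was 1569 for the 4 livers, 1805 for the 2 testes, 602 for the 2 ovaries and 380 for the 4 kidneys. The gene at rank 150 had a gap of 1.0 for brain, 1.16 for liver, 1.15 for testis, 0.44 for ovary and 0.23 for kidney. Fewer libraries on the low side make a gap easier to reach, so the gonads are not on the same footing as the other tissues. The counts rest on the scaling: with the same sum of RPKM they were 738 for brain, 6084 for liver, 579 for testis, 328 for ovary and 203 for kidney. So do the gaps at rank 150, which were then 0.83 for brain, 2.03 for liver, 0.72 for testis, 0.32 for ovary and 0.11 for kidney. Brain lay above testis on that scale. As deposited, the 150 genes lowest in brain also differed from their counterparts in liver in their level in the low tissue. The highest value in the low tissue had a median of 3.78 RPKM for brain, 1.26 for liver and 5.03 for testis, and stayed under 1 RPKM in 22 genes for brain, 63 for liver and 19 for testis. The difference was smaller in lists chosen with the same sum of RPKM. Their deposited values had medians of 2.83, 2.02 and 3.31 RPKM in the same order, with 32, 47 and 27 genes under 1 RPKM. These are values of lists chosen by the same rule and were not tested.

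**Figure D3:**
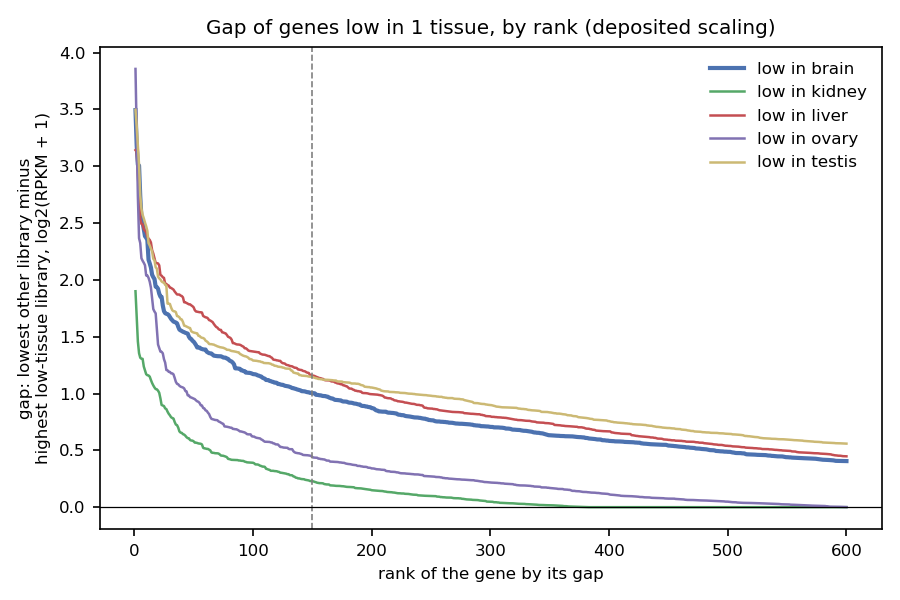
Gap between the lowest library of the other tissues and the highest library of the low tissue, in log2(RPKM + 1) as deposited, for the 600 genes with the widest gaps in each tissue; the dashed line marks rank 150. At rank 150 brain has a gap of 1.0 on this scale, which lies under liver and testis and above ovary and kidney. With the same sum of RPKM (not drawn) brain, at 0.83, lies above testis, at 0.72.

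The tissues outside brain were then compared with each other. The genes were not ranked by differences among these tissues. The choice did use the lowest of their 12 values, so it is not independent of this contrast. Each of kidney, liver, ovary and testis was set against the mean of the other 3 in 1 limma fit of the 12 libraries, over 16675 genes at 1 RPKM or more in at least 2 of them. A gene was called at a Benjamini-Hochberg adjusted p of 0.05 or less and a log2 difference of 1 or more. All 150 genes were tested. Because the choice used the lowest of the 12 values, genes absent from any of these tissues could not enter. For each tissue, shares are therefore also given for the 10436 genes at 1 RPKM or more in all 12 libraries, called widely read genes below. The 150 genes had higher median levels than these in each of the 4 tissues. A difference of 1 in log2(RPKM + 1) is harder to reach near 0, so level also bears on the calls. Of the 150, 106 were called in at least 1 of the 4 comparisons, 70.7% against 64.9% of all genes tested. Called higher in at least 1 tissue were 99 (66%, against 57.7%) and in 2 tissues 19 (12.7%, against 7.51%). No share of the widely read genes was taken for these counts. The comparisons share libraries, because a tissue also enters the mean that the other 3 are set against.

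On the deposited scale, liver had the most genes called higher. There 58 of 150 were called higher (38.7%, where 14.8% of all genes tested and 15.5% of the widely read genes were called). Called lower were 14 (9.33%, against 22.3% of all genes tested and 11.6% of the widely read genes), a share near that of the widely read genes. The median log2 difference was 0.70 over the 150 genes, -0.22 over all genes tested and 0.00 over the widely read genes. These counts turn with the scaling. Of the calls in liver 80.6% were in the higher direction as deposited; with the same sum of RPKM 26 genes were higher and 55 lower (32.1% higher), and with voom on the recovered reads 30 and 54 (35.7%). Of all 16675 genes tested, the same sum called 1112 higher and 9955 lower, and voom 1309 and 10499. The median of all genes tested moved by -0.99 and -1.21 with these scalings. Set against that median, the median of the 150 genes lay 0.92 higher as deposited, 0.67 higher with the same sum, 0.64 higher after quantile normalization and 0.94 higher with voom. Set against the median of the widely read genes it lay 0.69, 0.64, 0.52 and 0.70 higher in the same order.

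DMR_04882 had the largest difference in liver. It stood at 3032 RPKM in the breeding female, 2631 in the breeding male, 2034 in the non-breeding female and 2628 in the non-breeding male. Kidney held 67.5 to 111 RPKM, the ovaries 16.9 and 20.4, the testes 4.11 and 5.61, and the brains 0.363 to 1.26. The log2 difference was 6.85 (SE 0.169, limma adjusted p = 6.5e-11). DMR_06100 followed with 2165 RPKM in liver (SD 358, n = 4) against 53.6 to 157 in kidney and 8.64 to 25.9 in the gonads (log2 difference 6.29, SE 0.307, limma adjusted p = 1.2e-08). In neither gene did the livers overlap with another tissue.

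The genes lowest in liver were DMR_16778 and DMR_01087. DMR_16778 stood at 58.8, 51.0, 41.9 and 65.7 RPKM in the livers, just under the kidneys at 72.1 to 108 and far under the ovaries at 2373 (breeding) and 1970 (log2 difference -2.83, SE 0.196, limma adjusted p = 1.84e-07). DMR_01087 stood at 1.94, 1.26, 2.40 and 2.59 RPKM in liver, 48.3 to 108 in kidney and 5.88 to 11.6 in the gonads (log2 difference -2.61, SE 0.247, limma adjusted p = 2.49e-06). Its brain values were 0, 0, 0.105 and 0.105 RPKM, from 4 reads in all. It stayed in the list in 12 of the 16 runs that left out 1 library.

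Testis had the most genes called lower on the deposited scale. Of the 150, 61 were called lower (40.7%, against 20.7% of all genes tested and 23.7% of the widely read genes). Called higher were 15 (10%, against 25.1% of all genes tested but 14.2% of the widely read genes). The median log2 difference was -0.69 over the 150 genes, -0.01 over all genes tested and -0.21 over the widely read genes. Of the calls in testis 19.7% were in the higher direction as deposited; with the same sum of RPKM 29 genes were higher and 29 lower (50% higher), and with voom 29 and 35 (45.3%). Of all 16675 genes tested, the same sum called 6833 higher and 1850 lower, and voom 6957 and 1967. The median of all genes tested moved by 0.69 and 0.75 with these scalings. Against that median the 150 genes lay at -0.68 as deposited, -0.62 with the same sum, -0.44 after quantile normalization and -0.78 with voom. Against the median of the widely read genes they lay at -0.48, -0.47, -0.38 and -0.50 in the same order.

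DMR_04882, which led in liver, was also the gene called lower in testis by the widest margin (log2 difference -4.85, SE 0.212, limma adjusted p = 2.53e-09). DMR_00750 stood at 26.2 (breeding) and 17.5 RPKM in the testes, at 102 and 88.6 in the ovaries, at 277 to 634 in kidney and at 1478 to 4053 in liver (log2 difference -4.38, SE 0.378, limma adjusted p = 1.05e-06). Its brain values of 1.35 to 2.63 RPKM were lower still. The highest in testis were DMR_16541 and DMR_11085. DMR_16541 stood at 54.9 (breeding) and 66.9 RPKM there and at 7.69 to 16.5 in the other 10 non-brain libraries (log2 difference 2.35, SE 0.194, limma adjusted p = 7.26e-07), with 1.5 to 2.01 in brain. DMR_11085 stood at 123 and 112 RPKM in testis and at 14.8 to 41.0 in the others (log2 difference 2.15, SE 0.187, limma adjusted p = 1.18e-06). It held its place in the list in 6 of the 16 runs without 1 library.

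In kidney 27 of the 150 were called higher (18%, against 13.2% of all genes tested and 10.6% of the widely read genes). Called lower were 20 (13.3%, against 14.1% of all genes tested and 6.9% of the widely read genes). The median difference was 0.03 over the 150, -0.13 over all genes tested and -0.01 over the widely read genes. As deposited 57.4% of the calls were in the higher direction. With the same sum of RPKM 32 genes were higher and 16 lower (66.7% higher), and with voom 33 and 16 (67.3%). Of all 16675 genes tested, the same sum called 2468 higher and 2729 lower, and voom 2991 and 2857. DMR_04653 led, with 296, 173, 183 and 193 RPKM in the kidneys and 3.6 to 20.2 in the other non-brain libraries (log2 difference 4.10, SE 0.227, limma adjusted p = 4.48e-08). DMR_01353 stood at 225 RPKM in kidney (SD 76.9, n = 4), 75 in liver (SD 18.3, n = 4), 7.33 and 9.99 in ovary and 2.97 and 3.33 in testis (log2 difference 3.90, SE 0.232, limma adjusted p = 7.89e-08). The lowest in kidney were DMR_09355, described above (log2 difference -5.56, SE 0.406, limma adjusted p = 4e-07), and DMR_01128, at 17.4, 35.7, 11.3 and 22.3 RPKM against 43.1 to 2063 in the others (log2 difference -3.78, SE 0.394, limma adjusted p = 8.01e-06).

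In ovary 18 of the 150 were called higher (12%, against 12.1% of all genes tested and 11.2% of the widely read genes). Called lower were 29 (19.3%, against 15% of all genes tested and 9.4% of the widely read genes). The median difference was -0.26 over the 150, -0.08 over all genes tested and 0.04 over the widely read genes. The majority turned with the scaling, and so did that of all 16675 genes tested. As deposited 38.3% of the calls were in the higher direction. With the same sum of RPKM 31 genes were higher and 18 lower (63.3% higher), against 3319 and 2276 of all genes tested. After quantile normalization the counts were 30 and 25 (54.5%), against 2517 and 2436. With voom they were 34 and 18 (65.4%), against 4325 and 1932. DMR_16778, low in liver, was the highest in ovary at 2373 (breeding) and 1970 RPKM, against 41.9 to 404 in the other non-brain libraries (log2 difference 4.25, SE 0.246, limma adjusted p = 2.18e-07). DMR_04060 stood at 193 (breeding) and 161 RPKM in ovary, with 7.02 to 14.7 in the rest (log2 difference 4.01, SE 0.188, limma adjusted p = 4.29e-08), with 0.931 to 1.99 in brain. The lowest were DMR_19818 and DMR_19816, both most abundant in liver, at 1036 RPKM (SD 121, n = 4) and 292 (SD 23.0, n = 4). In ovary DMR_19818 stood at 7.43 (breeding) and 2.99 RPKM, which overlapped with the testes at 9.90 and 5.87 (log2 difference -4.46, SE 0.265, limma adjusted p = 2.51e-07). DMR_19816 stood at 2.99 and 2.08 RPKM in ovary, under the testes at 3.73 and 5.48 (log2 difference -3.91, SE 0.239, limma adjusted p = 3.05e-07).

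**Figure D4:**
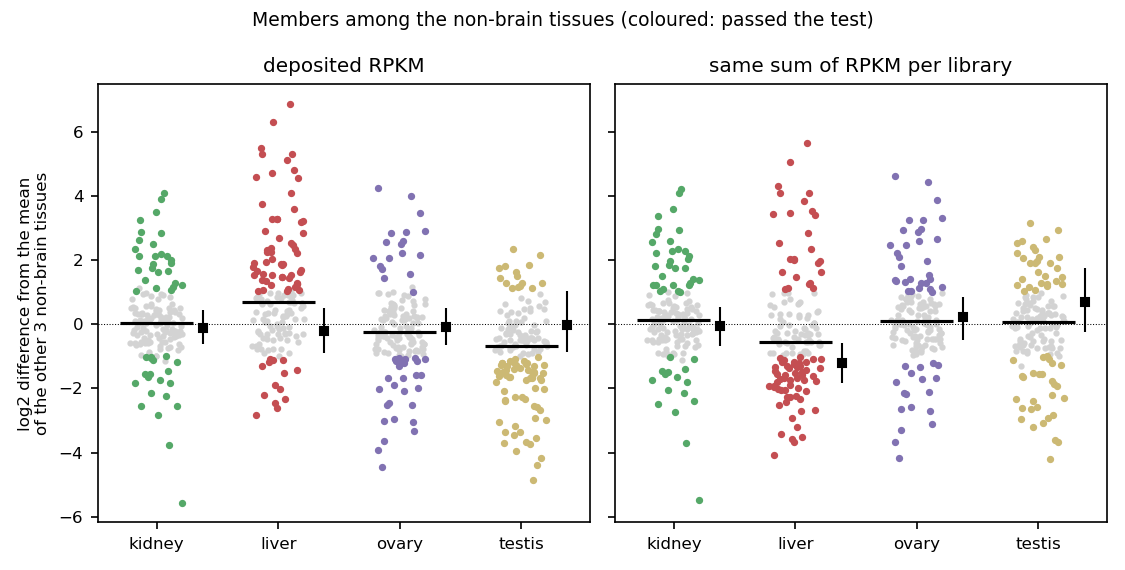
Log2 difference of each of the 150 genes in kidney, liver, ovary and testis from the mean of the other 3 tissues, with deposited RPKM (left) and the same sum of RPKM per library (right); coloured points passed the test, long bars are medians of the 150, and squares with lines are the median and quartiles of all 16675 genes tested. In liver the median of the 150 is 0.70 on the left and -0.54 on the right, and lies above that of all genes in both panels.

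Breeding and non-breeding libraries were compared outside brain, in a limma fit of the same 12 libraries with tissue and sex in the model. Large differences among these libraries lower a gene's chance of entering the list. None of the 150 genes passed the threshold (0 called, where 0.018% of all genes tested were), and voom called 0. An unadjusted p under 0.05 was reached by 13 of the 150 (8.67%, against 7.06%), and the smallest adjusted p was 0.692. The median difference was 0.03 over the 150 genes and 0.01 over all genes tested. Higher in the breeding library in all 6 pairs matched for tissue and sex were 3 of the 150 (2%, against 2.31%), and lower in all 6 were 3 (2%, against 1.73%).

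DMR_18026 had the smallest unadjusted p for a lower level in breeding libraries. With the breeding library given first, it stood at 126 and 272 RPKM in the female kidneys, 50.8 and 121 in the male kidneys, 446 and 1314 in the female and 559.6 and 695 in the male livers, 23.0 and 69.8 in the ovaries and 137 and 177 in the testes. The breeding library was the lower in all 6 pairs (log2 difference -1.02, SE 0.226, unadjusted p = 0.00129, limma adjusted p = 0.692). DMR_21250 had the smallest unadjusted p for a higher level. Its breeding values were 33.7, 31.1, 48.1, 40.7, 22.9 and 13 RPKM in the female and male kidney, the female and male liver, the ovary and the testis, and the non-breeding values 25.4, 18.4, 26.6, 36.7, 19.7 and 10.1 in the same order (log2 difference 0.44, SE 0.126, unadjusted p = 0.00612, limma adjusted p = 0.692).

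The pairs were also read 1 by 1, with no test. The median difference between a breeding library and its partner was 0.16 in the female and -0.00 in the male kidney, -0.04 in the female and 0.15 in the male liver, 0.01 in the ovary and -0.11 in the testis. The median over all genes tested was 0.04, 0.00, 0, 0, 0.01 and -0.05 in the same order. Over the widely read genes it was 0.05, 0.00, -0.05, 0.04, -0.01 and -0.03. Higher in the breeding library were 92, 74, 71, 99, 76 and 62 of the 150 genes in that order. Of the 150 these were 61.3%, 49.3%, 47.3%, 66%, 50.7% and 41.3%. Of all genes tested 53.2%, 50.5%, 47.7%, 48.2%, 51.2% and 44.0% were higher. Differences of 1 or more in log2(RPKM + 1) were counted, which takes more than a 2-fold change in RPKM, most of all at low levels. Such a difference was seen in 15 of the 150 in the female liver (10%, against 9.2% of all genes tested), 13 in the ovary (8.67%, against 6.69%) and 10 in the female kidney (6.67%, against 7.66%). It was seen in 5 genes each in the male kidney (3.33%, against 2.9%) and the testis (3.33%, against 2.75%), and in 3 in the male liver (2%, against 4.02%). In the brain pairs 0 genes of the 150 reached a difference of 1 between the females, against 1.79% of all genes tested. Between the males 7 did (4.67%, against 3.29%). A gene under 1 RPKM in both brains of a pair cannot reach a difference of 1, so the choice of genes low in brain bears on these counts. Outside brain, the shares of the 150 genes were above those of all genes tested in the female liver, ovary, male kidney and testis. They were below in the female kidney and the male liver. No share of the widely read genes was taken for these counts.

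**Figure D5:**
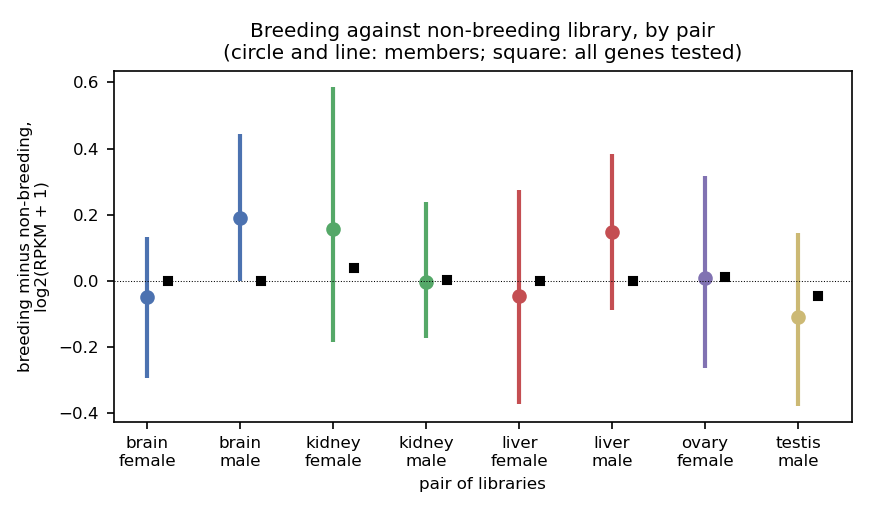
Difference between the breeding and the non-breeding library in log2(RPKM + 1) for the 8 pairs matched for tissue and sex; circles with lines are medians and quartiles of the 150 genes, and squares are medians of all genes tested. The male brain pair has the highest median, 0.19, and its quartiles lie almost wholly above 0. The female kidney pair, at 0.16, and the male liver pair, at 0.15, come next.

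Male and female libraries were compared in the same fit, in which kidney and liver alone have both sexes. Of the 150 genes 0 passed the threshold, where 0.048% of all genes tested did, and voom called 0. An unadjusted p under 0.05 was reached by 21 of the 150 (14%, against 12.9%), and the smallest adjusted p was 0.257, for DMR_01128. This gene was higher in the male of each pair: 35.7 against 17.4 RPKM in the breeding and 22.3 against 11.3 in the non-breeding kidneys, and 2063 against 1027 and 1885 against 625 in the livers (log2 difference 1.13, SE 0.317, unadjusted p = 0.00566). The brains, which are not in that fit, had 2.19 against 0.356 and 1.86 against 0.838 RPKM. With kidney, liver and brain in place of the 12 non-brain libraries DMR_01128 passed the threshold (log2 difference 1.07, limma adjusted p = 0.0203). That fit called 53 higher and 25 lower of 15964 genes, and it includes the brain values by which the 150 were chosen. Over all alternatives the adjusted p of DMR_01128 ran from 0.0203 to 0.528. DMR_21053 had the smallest unadjusted p for a lower level in males, with 6.75 against 11.5 and 5.44 against 7.35 RPKM in the kidneys and 10.8 against 14.0 and 8.88 against 12.9 in the livers (log2 difference -0.48, SE 0.157, unadjusted p = 0.0134, limma adjusted p = 0.297).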

How the data were processed

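Per the labels' protocols, libraries were made from poly(A) RNA with random priming and sequenced as paired ends, and no step that keeps strand is described. The authors deposited RPKM values, in 1 table of 21082 genes and 16 libraries, all used. TopHat 1.3.1 is named in the submitters' processing notes. Genome build, annotation and counting tool: not given in the sources used here.

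Each RPKM was resolved into whole reads, a coding length in units of 3 bases and a whole-number divisor per library; all 21082 genes had a solution with a deviation of at most 1e-06 per read. Genes at 1 RPKM or more in at least 2 of the 12 non-brain libraries were tested. Log2(RPKM + 1) was fitted with limma 3.58.1 in R 4.3.3 (lmFit, eBayes with a trend), with Benjamini-Hochberg adjustment over all genes tested. Both steps were tested on simulated data. Alternatives were the same sum of RPKM per library, quantile normalization, a pseudocount of 0.1, no filter, voom on recovered reads, blocks, and each library left out in turn.

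The genes and the rules were chosen with earlier results of these data known. Named were the 2 genes with the widest gap, the highest mean in and outside brain and the smallest range outside brain, the 2 called genes with the largest difference per tissue and direction, and, where none was called, the gene with the smallest p per direction. DMR_01086 was named after its values were seen. Marker lists could not be used, since identifiers carry no names.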

Additional observations from a re-analysis of the deposited data

Results flagged for a closer look

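For the named genes and for the share of reads on the 150 genes, the values of the 4 libraries of brain, kidney or liver were examined for a library far from the other 3 by Dixon's criterion. Of 72 such groups 5 had one, and chance flags about 1 group in 20.

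DMR_01199 stood at 108 RPKM in the liver of the non-breeding male, against 59.8 to 67.8 in the other livers. DMR_09355 stood at 1.52 RPKM in the brain of the non-breeding male, the library not labelled frontal, against 0.524 to 0.552 in the other brains. DMR_18091 stood at 2802 RPKM in the liver of the breeding male, against 1797 to 1922 in the other livers. DMR_04653 stood at 296 RPKM in the kidney of the breeding female, against 173 to 193 in the other kidneys. DMR_04060 stood at 0.931 RPKM in the brain of the breeding female, against 1.82 to 1.99 in the other brains.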

How the results depend on the processing

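In liver 26 genes were called higher and 55 lower with the same sum of RPKM, and 30 and 54 with voom, against 58 and 14 as deposited. In testis the counts were 29 and 29 with the same sum and 29 and 35 with voom, against 15 and 61. In ovary they were 31 and 18 with the same sum and 34 and 18 with voom, and 30 higher after quantile normalization, against 18 and 29. Calls over all genes tested moved the same way with these scalings, as given above. What the authors' divisor counts is not given, so no scaling can be preferred. With kidney, liver and brain, 1 of the 150 genes was called higher in males, where 53 of all 15964 genes tested were. Without any 1 library the calls were 26 to 29 higher and 18 to 24 lower in kidney, 56 to 62 and 13 to 17 in liver, 15 to 19 and 25 to 30 in ovary, 10 to 16 and 56 to 63 in testis, and 0 for status and sex. Without the non-breeding testis the 15 genes higher in testis became 10. With a random replicate block for the class of status and sex, the calls were 27 and 21 in kidney, 58 and 14 in liver, 19 and 28 in ovary and 15 and 62 in testis, and with pairs of tissue and sex as a block 0 genes were called for status; the labels do not say that libraries share an animal. The named genes kept their direction in all 362 refits and their call in 361. The list itself, taken without the library labelled brain, kept 143 genes. The 22 genes under 1 RPKM in brain rest on a median of 25.5 reads there, which limits the precision of their brain levels.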
